A study of Mus musculus with 27 samples.

Results

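Ribosomal DNA encodes the RNA of the ribosome. RNA polymerase I transcribes each repeat into a long precursor, which is cut into the mature 18S, 5.8S and 28S RNAs. A mouse cell carries many such repeats in tandem arrays on several chromosomes, and active and silent repeats are known to coexist in a cell, silent repeats being known for methylated DNA. The stretch described here lies on chromosome 17 from 39843014 to 39848754 (GRCm38), is 5741 bp long, and is a place in the reference genome where sequence of this repeat has been assembled. In the RefSeq gene table it holds Rn18s-rs5, a pseudogene entry named for 18S ribosomal RNA (39846354 to 39848202). Its high-coordinate end overlaps AY036118, a long non-coding RNA (39848112 to 39898385). The files do not tell which repeat a read came from. A percent methylation here can therefore be an average over many copies, and more methylated copies cannot be told apart from more methylation on each copy.

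The positions are cytosines of CpG dinucleotides on chromosome 17 in that interval that were listed in at least 2 of the 3 samples of all 9 strains. They number 734, out of 1291 positions listed there in at least 1 sample and out of 1951655 positions in the genome that meet the same listing rule. Percent methylation is the share of reads at a cytosine that bisulfite left unconverted, as deposited by the authors, with no coverage beside it. The stretch was chosen by percent methylation values, namely by how far the strain means differed there, so differences in level between strains are given as a description. The level over the stretch was not tested between strains. A genome-wide fit also gives calls at single positions of the stretch, and nothing is read from their number.

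Hepatocytes, which make up most of the liver's mass, came from female mice aged 12 weeks of 9 inbred strains, and DNA methylation was read by reduced representation bisulfite sequencing, which samples fragments cut by MspI. There were 3 biological replicates of each strain and 27 samples in all. The laboratory strains were A/J, NOD/ShiLtJ, NZO/HlLtJ, 129S1/SvImJ, DBA/2J and C57BL/6J, and the strains derived from wild mice were WSB/EiJ, PWK/PhJ and CAST/EiJ. The labels name no treatment and no control strain. An inbred strain is a single genotype, so each strain level stands for that genotype only. Between 2904787 and 3156965 positions were listed per sample. Gene ends of hepatocyte markers had a median level of 14.6% over the 4 of 11 genes with shared positions, against 84.2% at 5 leukocyte genes, with Coro1a at 12.0%, and 90.4% at 3 Kupffer cell genes. Of 3 endothelial genes the median was 90.4%, with Kdr at 8.08%. Stellate cell genes (10.5%, 3 genes) and cholangiocyte genes (24.6%, 4 genes) were low as well, so these ends do not separate hepatocytes from those cell types.

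A/J stood far above the other strains over the 734 positions. Its samples were at 41.8, 42.8 and 46.1%, with a mean of 43.6% ± 2.24 (SD, n = 3). NOD/ShiLtJ came next with samples at 17.5, 21.8 and 27.7% and a mean of 22.3% ± 5.11 (SD, n = 3). The lowest A/J sample lay 14.2 points above the highest sample of any other strain, which was NOD/ShiLtJ replicate 2.

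C57BL/6J samples were at 14.9, 16.7 and 20.5% (17.3% ± 2.84, SD, n = 3). DBA/2J samples were at 12.1, 14.5 and 19.3% (15.3% ± 3.67, SD, n = 3). WSB/EiJ samples were at 13.1, 13.4 and 19.3% (15.3% ± 3.54, SD, n = 3). Together with CAST/EiJ, at 13.8, 14.6 and 15.3% (14.6% ± 0.769, SD, n = 3), these strains formed a middle group whose samples overlapped. NOD/ShiLtJ also overlapped C57BL/6J.

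The low end was held by PWK/PhJ, NZO/HlLtJ and 129S1/SvImJ. PWK/PhJ samples were at 8.72, 10.3 and 11.8% (10.3% ± 1.53, SD, n = 3), below all CAST/EiJ samples. NZO/HlLtJ samples were at 7.83, 8.11 and 8.36% (8.10% ± 0.266, SD, n = 3). The 129S1/SvImJ samples were at 6.71, 7.68 and 8.02% (7.47% ± 0.680, SD, n = 3). NZO/HlLtJ and 129S1/SvImJ overlapped each other, and both lay below PWK/PhJ. From the lowest strain to A/J the mean level differed 5.84-fold, a span of 36.1 points between strain means. The genome-wide mean over positions listed in all samples ran from 27.4% in C57BL/6J to 28.5% in PWK/PhJ as strain means. Over single samples it spanned 1.40 points, from 27.2 to 28.6%.

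**Figure D1:**
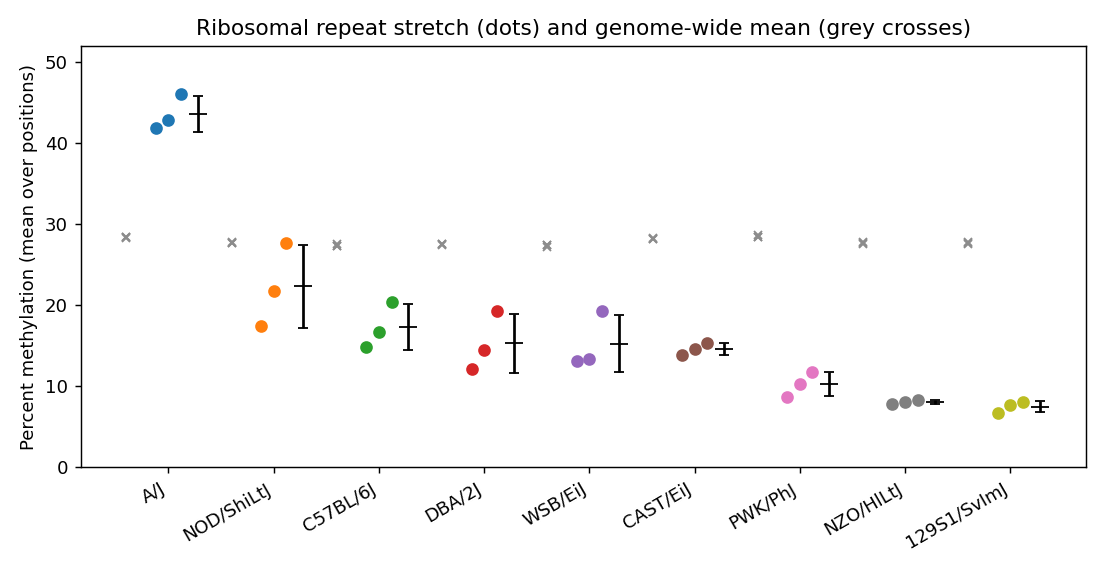
Mean percent methylation over the 734 positions of the stretch in each sample (coloured dots), with the strain mean and SD of 3 samples (black) and the genome-wide mean of each sample (grey crosses). The A/J samples, at 41.8 to 46.1%, lie above their genome-wide mean, and the samples of the other strains lie below theirs except for NOD/ShiLtJ replicate 2, which is level with it.

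The A/J level was made of intermediate values at single positions rather than of a mixture of positions near 0 and near 100%. In the 3 A/J samples, 91.3 to 92.2% of the positions had a value from 20 to 80%. Within some strains, samples differed by a shift that ran along the stretch. NOD/ShiLtJ replicate 2 lay above its strain mean by 5.35 points on average and in 23 of 23 bins of 250 bp. DBA/2J replicate 4 lay 3.19 points below its strain mean, in 23 of 23 bins, and WSB/EiJ replicate 4 lay 4.08 points above, in 21 of 23. Other samples lay on the side of their mean deviation in 10 to 22 of the 23 bins. These shifts were set against measures of the whole library, and neither relation passed its test. Across 27 samples, deviations from the strain mean had a Pearson r of 0.108 with the genome-wide mean level (permutation within strains, two-sided, p = 0.658, adjusted p = 0.658 over 2 relations; Spearman rho 0.187, p = 0.429, adjusted p = 0.570). Without the 2 samples farthest from the median, r was 0.0478 (permutation, p = 0.834). With the number of positions listed, r was -0.248 (permutation, p = 0.341, adjusted p = 0.658; rho -0.139, p = 0.570, adjusted p = 0.570), and -0.428 (permutation, p = 0.119) without the 2 farthest samples.

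Along the stretch, the lead of A/J was present from end to end. In bins of 250 bp, A/J was the highest strain in 23 of 23 bins, and its level ran from 29.1 to 48.5%. All A/J samples lay above all other samples in 22 of the 23 bins. The level of A/J minus the mean of the other 8 strains averaged 28.7 points, with an SD of 3.84 points over bins. The smallest offset, 18.9 points, was in the bin from 39847014 to 39847263, inside Rn18s-rs5, which holds only 2 of the positions. The largest, 34.4 points, was in the bin from 39843264 to 39843513, near the low-coordinate end, with 22 positions. In the 13 bins that hold at least 20 positions the offset stayed between 27.8 and 34.4 points. As a ratio, A/J was 2.55 to 4.11 times the mean of the others, with a median of 3.09 over bins.

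Below A/J, the next place and the lowest places were kept along most of the stretch, while the strains between them changed order from bin to bin. NOD/ShiLtJ was second in 17 of 23 bins. 129S1/SvImJ took the lowest or next lowest place in 22 bins and NZO/HlLtJ in 20. C57BL/6J and CAST/EiJ had the largest spread of offset from the mean of the 9 strains over bins, with SDs of 4.27 and 4.21 points. CAST/EiJ was second in 2 bins, with 25.4% in the bin from 39846264 to 39846513 across the low-coordinate edge of Rn18s-rs5, and it was lowest in the bin from 39848014 to 39848263, at 6.67%. That bin, with 10 positions, was also where 129S1/SvImJ reached 27.2% and C57BL/6J 36.7%, and there the A/J samples overlapped those of other strains. Averaged over strains, the lowest bin was 39844264 to 39844513, at 10.2% over 5 positions, and the highest was 39846514 to 39846763, inside Rn18s-rs5, at 21.1% over 34 positions.

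**Figure D2:**
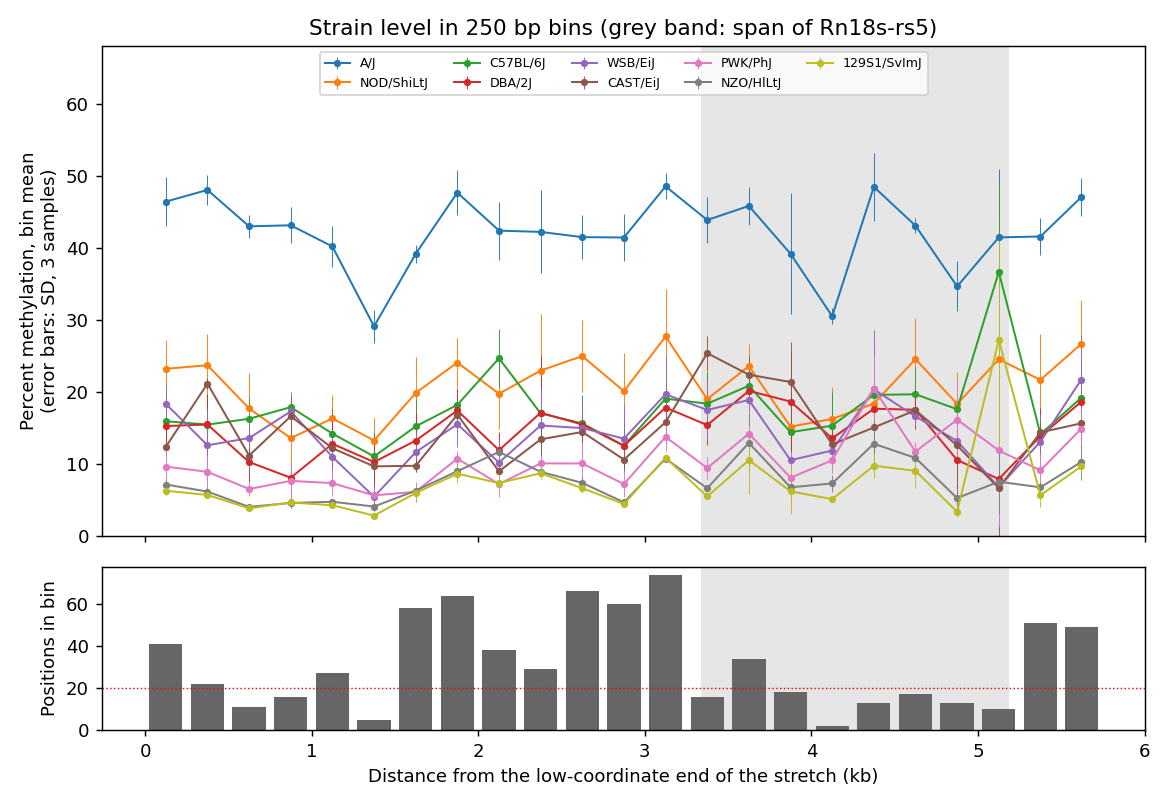
Upper panel, mean percent methylation of each strain in 250 bp bins against the distance from the low-coordinate end of the stretch in kb, with error bars for the SD of 3 samples and a grey band for the span of Rn18s-rs5. Lower panel, number of positions in each bin, with a dotted line at 20. A/J lies above all other strains in 23 of 23 bins, and the lines of the other strains cross in bins with many positions as well as in bins with few.

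Over all positions, A/J levels before, inside and beyond Rn18s-rs5 were within their spread between samples. Before Rn18s-rs5, over 519 positions, A/J was at 43.6% ± 2.72 (SD, n = 3), inside it, over 105 positions, at 43.0% ± 1.54 (SD, n = 3), and beyond it, over 110 positions that all fall in AY036118, at 44.0% ± 2.48 (SD, n = 3). The corresponding levels of 129S1/SvImJ were 6.97% ± 0.263, 8.26% ± 2.29 and 9.10% ± 1.90 (SD, n = 3 each). Within samples, the level inside Rn18s-rs5 exceeded the level outside by 1.89 points on average over the 9 strain means, with an SD of 2.29 points (exact sign-flip permutation test over 9 strain means, two-sided, p = 0.0430, smallest possible p 0.00391). The difference was above 0 in 7 of 9 strains and in 22 of 27 samples. CAST/EiJ had the largest, 5.82 points ± 0.847 (SD, n = 3), with 5.09, 5.62 and 6.75 in its samples, while NOD/ShiLtJ was at -1.81 and A/J at -0.646 points. This call depended on the choice of samples and positions. It held in the other 24 omissions of a single sample. The call also held without the 30 positions that lack their strand partner (2.45 points, exact permutation, p = 0.0117), an alternative added after the data were seen. It was lost over positions listed in all samples (1.45 points, exact permutation, p = 0.0977) and on the log2 scale (0.065, exact permutation, p = 0.270). Leaving out NOD/ShiLtJ replicate 1 or A/J replicate 3 gave p = 0.0781, and leaving out 129S1/SvImJ replicate 2 gave p = 0.0625 (exact permutation). The difference turned to -1.66 points (exact permutation, p = 0.0195) over CpGs whose strands gave like values. These CpGs, described next, were chosen after values were seen, and only 10 lie inside Rn18s-rs5. Over those CpGs A/J had the largest difference, -5.69 points ± 1.62 (SD, n = 3), with all 3 samples lower inside. Since the sign depended on the positions used, no difference between inside and outside is read from these p-values.

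The lists give each strand of a CpG its own entry, so most sites were read on both strands. Positions at adjacent coordinates, taken from the low-coordinate end, were treated as the strands of a CpG. The reference sequence was not used, so this pairing was not checked against it. Of the 734 positions, 704 formed 352 CpGs with both strands by this rule and 30 stood alone. For 349 CpGs with a mean of 5 to 50%, the strands differed by a median of 1.86 points, against 8.33 points at 64678 such CpGs elsewhere in the genome; how many reads stand behind either set is not known. The mean difference per sample was 4.79 to 10.8 points in the stretch and 9.73 to 13.6 elsewhere, so these ranges overlapped. The limits of 10 and 25 points used below were set after the values were seen. In 200 of the 352 CpGs the strain means of the strands lay within 10 points in all 9 strains, and in 64 they lay more than 25 points apart in at least 1 strain. A fixed limit in points is easier to meet at low levels, and the 200 had lower levels than the rest.

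At the 200 CpGs with like strands, most of the variation lay between strains. The lower and upper quartiles over these CpGs were at 38.5 and 47.2% in A/J, 16.9 and 23.1% in NOD/ShiLtJ, 4.07 and 6.41% in NZO/HlLtJ, and 3.67 and 5.52% in 129S1/SvImJ. In the other 5 strains the quartiles lay between 5.93% (PWK/PhJ, lower) and 16.3% (C57BL/6J, upper). Single CpGs ranged more widely, from 27.2 to 69.2% in A/J, from 8.11 to 50.6% in NOD/ShiLtJ and from 2.35 to 35.2% in WSB/EiJ. A/J was the highest strain at 200 of the 200, and NOD/ShiLtJ was second at 182. The A/J offset over the other 8 strains averaged 31.6 points over CpGs (SD 4.49), from 16.8 to 42.4. Of the variation in the strain means at these CpGs, 86.3% lay between strains, 9.20% between CpGs and 4.49% in their combination. Over all 734 positions the corresponding shares were 45.5, 38.8 and 15.7%, and over the other 152 CpGs 37.3, 46.8 and 15.9%. Because the 200 were kept for strands that agree in every strain, and the stretch for its strain differences, the selection favours a high share between strains, and the shares are a description only. The 200 CpGs covered mainly the part before Rn18s-rs5, with 164 there, 10 inside and 26 beyond.

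**Figure D3:**
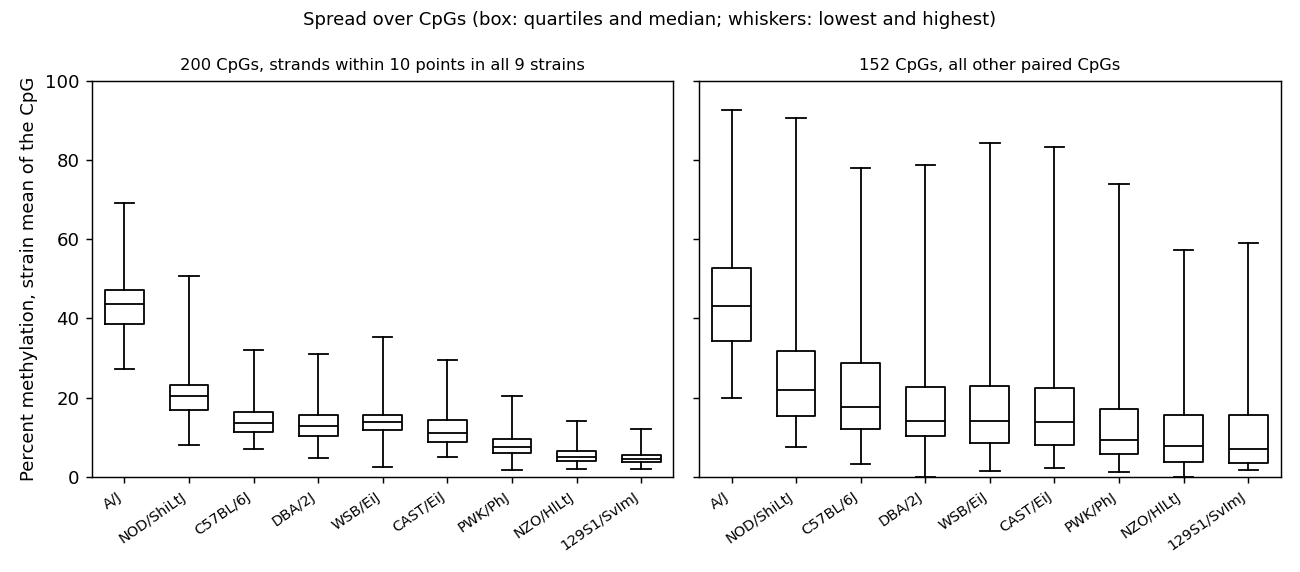
Strain mean percent methylation of each CpG (both strands averaged), shown as boxes for the quartiles and median and whiskers to the lowest and highest CpG, for the 200 CpGs whose strands lay within 10 points in all strains (left) and the other 152 (right). On the left the A/J box, 38.5 to 47.2%, is clear of all others, and on the right the boxes are wider and the upper whiskers pass 50% in all 9 strains.

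The CpGs whose strands disagreed were unevenly placed. Of the 64, 21 lay in the adjoining bins from 39844764 to 39845263, which hold 51 of the 352 CpGs. The bin from 39846014 to 39846263 held 9 among its 36 CpGs, near the share over the stretch, and the first bin wholly inside Rn18s-rs5 held 6 of 17. In the bin from 39848014 to 39848263, where samples of a strain spread widely and the strain order was uncertain, 5 of 5 CpGs were of this kind. For 20 of the 64 the strands were more than 25 points apart in only 1 strain, and for 3 in all 9 strains. C57BL/6J had 34 such CpGs, A/J 30, NZO/HlLtJ 27 and CAST/EiJ 15. A/J was the highest strain, with strands averaged, at 57 of the 64.

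**Figure D4:**
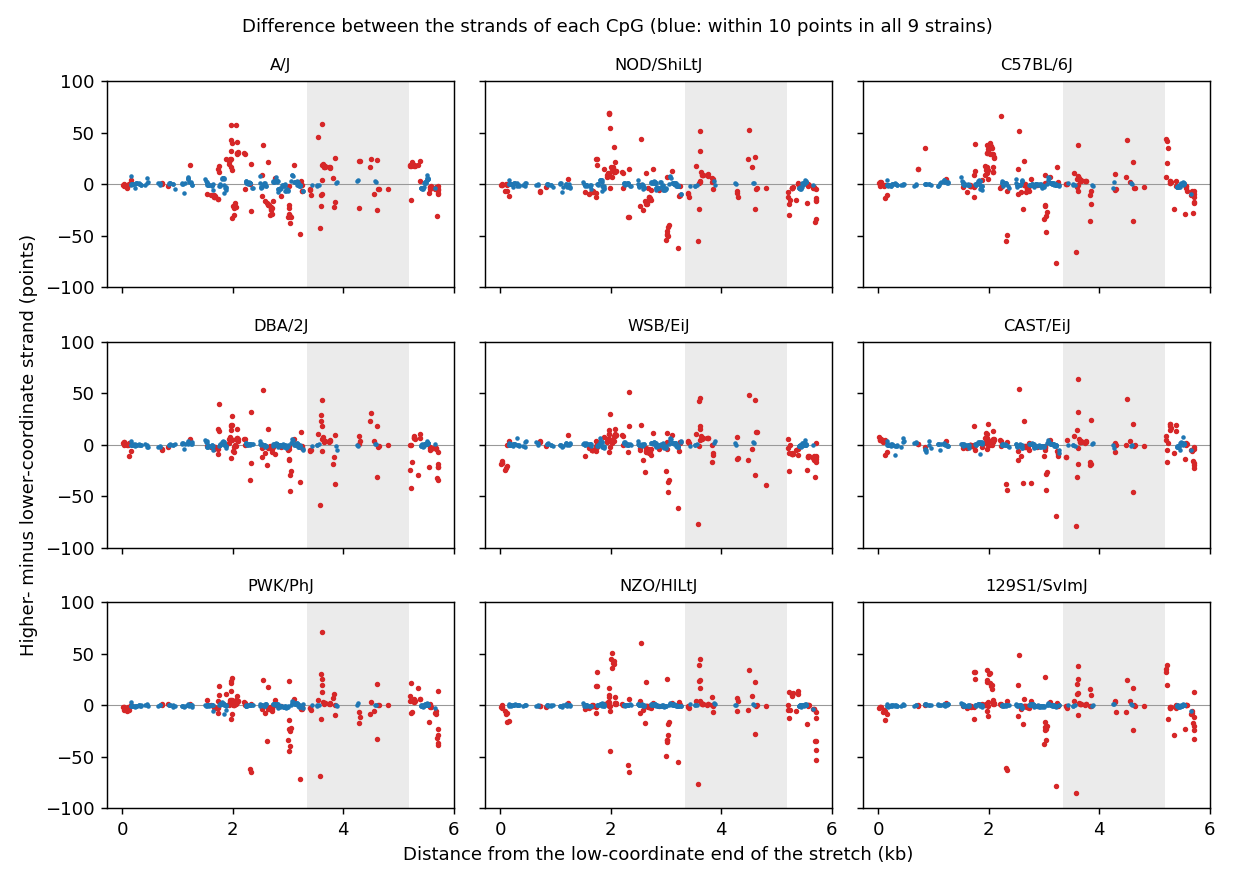
Strand difference at each of the 352 CpGs in each strain, as percent methylation at the higher coordinate minus that at the lower coordinate in points, against the distance from the low-coordinate end of the stretch in kb, with a grey band for Rn18s-rs5. Blue points are the 200 CpGs within 10 points in all 9 strains, and red points are the other 152, which occur in most of the stretch.

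The positions with the widest range of strain means all lay in those adjoining bins, with A/J highest at each. At 39845042 the A/J samples were at 85.1, 88.1 and 90.0% (87.7% ± 2.51, SD, n = 3) and the 129S1/SvImJ samples at 3.95, 5.16 and 6.40%. The other strains lay between 8.31 and 27.1% there, all far below A/J. On the opposite strand, at 39845043, A/J was at 64.3% ± 11.9 (SD, n = 3), NZO/HlLtJ at 58.5%, C57BL/6J at 43.6% and 129S1/SvImJ at 36.2%, with PWK/PhJ at 9.60%. At 39845005 A/J was at 87.5% ± 4.09 (SD, n = 3) and at 39845073 at 84.1% ± 6.87 (SD, n = 3), again with the opposite strand lower, at 54.4 and 62.1%.

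The positions with the narrowest range were cytosines that were low in all strains on a single strand. At 39845095, 53 bp from the widest position, strain means lay between 0.0975 and 1.68%, while the opposite strand was at 42.2% in A/J, 30.2% in C57BL/6J and 5.30% in 129S1/SvImJ. At 39846554, inside Rn18s-rs5, strain means lay between 0.412 and 2.90%, with the opposite strand at 46.3% in A/J and 5.16% in 129S1/SvImJ. At 39845734 A/J was at 7.27% ± 0.988 (SD, n = 3) and 129S1/SvImJ at 0.769%, and the opposite strand was at 36.2 and 3.47%. At each of these CpGs the span of strain levels in points was wide on a strand and narrow on the other. As a ratio of A/J to 129S1/SvImJ the strands at 39845734 and 39845095 were much alike, and at 39846554 the low strand was nearly equal in these strains.

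A pair of CpGs, chosen after their values were seen, shows the other forms this took. At 39845237 C57BL/6J stood alone, with samples at 76.5, 87.5 and 90.9%, above A/J at 44.7% ± 2.68 (SD, n = 3). On the opposite strand, at 39845236, C57BL/6J was at 19.0% ± 9.31 (SD, n = 3) and A/J at 49.5% ± 2.54 (SD, n = 3), the usual order. At 39846599, inside Rn18s-rs5, all strains were high, from 71.9% in DBA/2J to 94.4% in WSB/EiJ, whereas the opposite strand had 49.9% in A/J and 6.00% in 129S1/SvImJ. Strain sequences and read depth were not used here, so the part of either in these strand differences was not tested.

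In the genome-wide fit, a moderated F test in the manner of limma on log2((percent + 5)/(100 - percent + 5)), 692 of the 734 positions were tested. The others were not listed in all 27 samples (39) or had a mean within 2.5 points of 0 or 100% (3). Calls required strain means at least 25 points apart and an adjusted p (Benjamini-Hochberg) under 0.05, which held for 4.97% of all 704331 positions tested and for 594 of the 692. Since the same contrast chose the stretch, nothing is read from that count. The median span of strain means was 38.6 points, beside 15.5 points over all positions tested, and 664 of the 692 had their highest mean in A/J. The lowest mean was in 129S1/SvImJ at 458 and in NZO/HlLtJ at 156. These counts also follow the contrast that chose the stretch. No share over the genome stands beside them, so they are a description only.

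A stricter description asks for all 3 A/J samples to lie at least 25 points above the other 24 samples. It held for 0.00809% of positions tested in the genome, 57 in all, and for 9 in the stretch. With a gap of 10 points the number in the stretch was 483 of 713 in the genome (0.101% of positions tested). Without NOD/ShiLtJ replicate 2, the highest of the other samples, the number in the stretch at 25 points was 14.

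The stretch had sharp edges in what was listed. The first position, 39843014, had 48.7% in A/J and 6.87% in 129S1/SvImJ, and the last, 39848754, had 61.8% in A/J and 0.00% in 129S1/SvImJ. On the low-coordinate side the nearest listed positions, 12 and 13 bp out, were present in 9 and 19 samples. The nearest present in all 27 was 39842566, 448 bp out, with a mean of 79.5% and A/J at 86.7%, 129S1/SvImJ at 88.9% and NZO/HlLtJ at 51.7%. At 39842309, 705 bp out, the mean was 64.4% and strains lay between 57.1 and 72.6%, with A/J at 58.3%. On the other side the nearest position, 8 bp out, was listed in a single NZO/HlLtJ sample. Dense listing thus ended at the interval, but the limits of the interval are its first and last shared positions. The match may therefore follow from how the interval was drawn. A/J was not the highest strain at the named pair of positions beyond the interval that all samples listed.

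Farther out, methylation was high in all strains. Between 1 and 100 kb outside either edge, 22 positions were listed in all samples, 3 on the low-coordinate side and 19 on the other, and sample means over them ran from 85.2 to 95.0%. A/J had rank 4 of 9, at 90.0% ± 0.411 (SD, n = 3), between 92.1% ± 1.52 in NZO/HlLtJ and 86.7% ± 2.43 in C57BL/6J (SD, n = 3 each). Strains differed over these positions (permutation test of the F statistic, 100000 resamples, F = 2.90, p = 0.0242), but 0 of the 22 was called, and the p rose to 0.0686, 0.0682 and 0.0558 without C57BL/6J replicate 1, C57BL/6J replicate 2 and NZO/HlLtJ replicate 3. With the replicate number as a block it was 0.101. Over the 198 positions between 1 kb and 1 Mb outside, the strains differed more clearly (permutation test, F = 11.7, p = 3.0e-05), from 81.8% in C57BL/6J to 88.6% in CAST/EiJ, and A/J had rank 7, at 84.6%.

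Which positions were listed was itself uneven. Samples listed from 819 to 995 positions of the stretch, with a median of 884. NZO/HlLtJ samples listed 940, 956 and 995 (mean 964 ± 28.3, SD, n = 3) and CAST/EiJ samples 901, 917 and 987, while A/J samples listed 852, 857 and 858. The number differed among strains (permutation test, F = 3.33, p = 0.0176), though not past 0.05 without NZO/HlLtJ replicate 1 (p = 0.0672) or as a share of all positions listed in the sample (p = 0.0547). The 734 shared positions were nearly complete in all samples, from 723 to 734, which the listing rule largely sets. NZO/HlLtJ, with the most positions, was near the bottom in methylation, and all 3 A/J samples listed fewer than the median. C57BL/6J listed the fewest on average, 850, and had rank 3 in level, while 129S1/SvImJ, lowest in level, listed 878 on average. A relation between number listed and level over the strains was not tested.

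The 557 positions outside the shared set were of another kind. Only 72 were listed in a single sample, 253 in 2 to 5 and 232 in more. Of their values, 53.2% were exactly 0 and 5.67% exactly 100%, against 3.50 and 0.370% for the shared set. Shared positions made up 155 per kb before Rn18s-rs5, 56.8 per kb inside it and 199 per kb beyond it. Just inside the listing rule, 39 positions had 2 of 3 samples in their least covered strain, with a mean of 20.7%. Just outside, 32 had 1 of 3, with a mean of 14.9%.

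**Figure D5:**
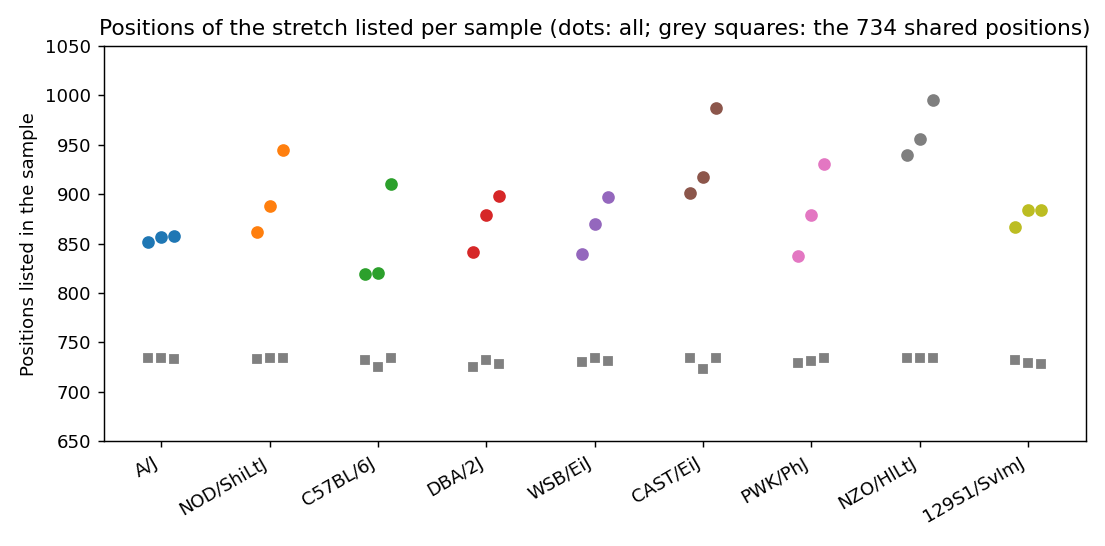
Number of positions of the stretch listed in each sample, by strain in order of level, for all positions (dots) and for the 734 shared positions (grey squares). All positions number 819 to 995 per sample and are highest in NZO/HlLtJ, and the shared positions stay between 723 and 734; the axis does not start at 0.

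Among the other entries for ribosomal RNA in the gene table, those with positions to read did not show the A/J pattern. The gene table holds 86 other entries, among them the n-R5s genes of 5S RNA, which RNA polymerase III transcribes from separate loci. Of these, 8 had positions listed in all samples inside or within 1 kb. None of the 8 is named as a copy of the repeat described here, so the comparison does not reach other copies of it. Over the 57 positions of the 8 entries, sample means ran from 68.1 to 80.4%. Gm22109 and n-R5s141 shared the same 5 positions, and n-R5s151 supplied 27 of the 57. At n-R5s151 A/J had the highest mean, 68.3% ± 3.28 (SD, n = 3), with the other strains between 62.9 and 67.2%. Of 53 tested positions 4 were called (7.55%, beside 4.97% over the genome), and 0 of these had A/J as the highest strain. At n-R5s25 3 of 4 positions were called, and over the 4 positions PWK/PhJ had 86.6% ± 4.66 and CAST/EiJ 86.5% ± 2.52, against 36.4 to 51.8% in the other strains (SD, n = 3). The remaining call was at 1 of 6 positions of LOC115490001. Inside the entries themselves only 2 positions were tested, too few to describe them.

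The genes whose products transcribe or silence ribosomal DNA were read at their ends, from a list of 34 symbols that includes the subunits of RNA polymerase I, its factors Ubtf, Rrn3 and the Taf1 proteins, and DNA methyltransferases. Of these, 31 were in the gene table and 28 had positions listed in all samples within 1 kb of an end. Ubtf, Dnmt3a and Npm1 had 0 such positions, and Dnmt1 had 1. In 19 genes the mean level was under 5%, and the median over genes was 0.937%. Of 349 tested positions 8 were called (2.29%). Of the 349, 235 belong to Phf8 and Suv39h1 on the X chromosome, with 0 called. At the autosomal genes 8 of 114 tested positions were called (7.02%), beside 5.17% over all autosomes. They lay at Sirt7 (3), a deacetylase tied to RNA polymerase I, at Smarca5 (3), a chromatin remodeller of the complex that silences ribosomal DNA, and at Taf1b (2), a subunit of the polymerase's promoter factor. At the called positions of Sirt7, WSB/EiJ was highest (92.0%) and NZO/HlLtJ lowest (62.0%). At those of Smarca5, 129S1/SvImJ was at 31.4% and DBA/2J at 0.00%, and at those of Taf1b, PWK/PhJ was at 52.4% and NZO/HlLtJ at 4.07%. A/J was not the highest or lowest strain at the called positions of any of the 3 genes. Expression of these genes was not analysed here.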

How the data were processed

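DNA methylation was measured in hepatocytes of 27 mice, 3 of each of 9 strains. The submitters' processing notes name Trim Galore 0.6.3, Bowtie2 and Bismark 0.22 and the builds GRCm38 and mm10; settings, coverage limits and the treatment of reads that align to several places are not given in the sources used here. The authors deposited 1 list per sample of positions with percent methylation and no coverage, so read depth behind a value cannot be stated and values carry no counting interval. The C57BL/6J lists name the mitochondrion M and the others MT, a difference that cannot be told apart from strain. Gene spans come from RefSeq (GRCm38.p6).

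The lists were joined by position. A strain's level is the mean of its 3 sample means over positions. The moderated F test was written in Python 3.11.15 (numpy 2.4.6, scipy 1.17.1, pandas 2.3.3). On 3000 positions of these data listed in all samples, it was set beside limma 3.58.1 in R 4.3.3. The number of positions with an adjusted p under 0.05 was the same, with and without a replicate block. Which positions passed was not compared. The test was fitted on positions listed in all samples with a mean at least 2.5 points from 0 and from 100%, with Benjamini-Hochberg adjustment over all 704331. Single values were compared by permutation (100000 resamples) or exact sign flips. P-values measure the spread between the biological replicates, and those from sign flips the spread between the 9 strain means. Figures were drawn with matplotlib 3.10.9.

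The stretch, the gene lists and the tests were chosen with earlier results of these data known. Named positions are the 3 with the widest and the 3 with the narrowest range of strain means among those listed in all samples, and the nearest listed outside each edge; exceptions are stated. Named bins are the lowest and highest in level and in A/J offset, with others added after their values were seen. Replicate numbers did not pair the samples: over 76 same-numbered pairs, deviations from the strain means correlated at -0.00809 to 0.00882. Alternatives were the offset, the filters, the bin length, the listing rule, the strands, a replicate block and leaving out each sample.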

Additional observations from a re-analysis of the deposited data

How the results depend on the processing

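Of 244 alternative values, 223 kept their direction and side of the threshold or, for counts and levels, stayed within 1.5 times or the replicate spread; 9 were chosen after seeing the data. The range of strain levels, 36.1 points, was 34.9 to 37.0 on leaving out single samples of the highest or lowest strain. Omissions in the other strains left the range at 36.1 points, because it uses only the highest and lowest strain means. Those omissions are counted among the 223 but do not test the range. The coefficient of variation of the A/J offset over bins, 13.4%, was 7.37% in bins of 500 bp, 21.2% in bins of 100 bp, 9.25% on the log2 ratio scale, 7.05% over bins with at least 20 positions, and 13.1 to 16.0% with each sample left out. The excess inside Rn18s-rs5, 1.89 points, was 1.45 points (exact permutation, p = 0.0977) over positions listed in all samples and 0.065 (exact permutation, p = 0.270) on the log2 scale, turned to -1.66 over CpGs with like strands, and was 1.73 to 2.10 with each sample left out. The F statistic for positions listed, 3.33, was 1.18 for shared positions only, whose even listing the rule sets, 2.47 as a share of all listed, and 2.36 to 4.75 with each sample left out. That for the flanks, 2.90, was 2.27 to 4.35 with each left out and 11.7 (permutation, p = 3.0e-05) over positions up to 1 Mb out. Positions set apart in A/J, 9, numbered 483 at a gap of 10 points and 9 to 14 with each left out. Calls at other ribosomal RNA loci, 4, fell to 0 inside the entries only, where 2 positions were tested. The cause of the other changes was not tested.

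With the replicate number as a block, though the numbers do not pair the samples, 584 positions were called in place of 594, the listed positions gave F = 3.37 (permutation, p = 0.0271) and the flanks F = 2.10 (permutation, p = 0.101), losing that call. Without coverage, differences of a few points at single positions cannot be set against read depth.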
